A study of Mus musculus with 30 samples.

Results

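The 9 genes described here are regulators and early products of skeletal myogenesis, measured by bulk RNA sequencing in 30 fibrosarcomas that grew from 5 mouse tumor cell lines. They are 9 of the 48440 genes in the count table. Myod1, Myf5, Myog, Pax3, Pax7, Des and Chrna1 were listed by role. Musk and Eya1 were chosen by measured values, namely their lower counts in both non-sensitive lines than in each sensitive line, and the question asked of the set was whether these 2 genes go with a myogenic program.

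Each line was derived from a single primary tumor induced with methylcholanthrene (MCA), a carcinogen that gives rise to fibrosarcomas, and was transplanted into C57BL/6 mice, so each line is 1 tumor of origin. MCA-943 (4 tumors) and MCA-969 (8 tumors) are labelled non-sensitive, and MCA-948 (8 tumors), MCA-970 (6 tumors) and MCA-972 (4 tumors) are labelled sensitive, to NK1.1+ cells, a population that holds natural killer cells and other innate lymphocytes. The strain label is Ncr1Cre for MCA-943 and Ncr1Cre R26DTA for the other lines; the second pairs Cre driven by Ncr1, the gene of the receptor NKp46, with a diphtheria toxin A allele, and the labels do not say whether it names the mouse of origin or the host. Hosts were wild type or deficient in NK cells, ages were not given, and CD45+ leukocytes were removed from the tumors with microbeads before RNA was extracted. In the paper's transplant screen, hosts were left untreated or given an antibody that depletes NK1.1+ cells. Tumor titles carry the letter W or a, which the labels do not explain. The letters fall unequally over the lines, with no W in MCA-972. Host status was not a term in the comparisons of lines. The tumors carried between 27745104 and 46537062 counts each. W-1D and W-2D of MCA-969 carry a sensitivity label opposite to that of their line. By the series of library numbers in the column names, which may or may not be batches, the lines fell into 3 runs. In run 1 were 6 tumors of MCA-969 and all 4 of MCA-972. The 6 tumors of MCA-970 shared run 2 with 2 of MCA-969 and 2 of MCA-948, and the remaining 6 of MCA-948 shared run 3 with all 4 of MCA-943. Cells were injected under the skin at a single site, so tumors of a line grew in separate hosts, and the p-values below measure the spread between transplants of 1 line, not between tumors of separate origin. In bulk tissue, fewer cells of a type and less RNA per cell cannot be told apart.

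Skeletal muscle forms when mesodermal progenitors marked by Pax3 and Pax7, paired-box transcription factors, switch on the basic helix-loop-helix factors Myf5 and Myod1 and then Myog, which binds E-box motifs in the promoters of muscle genes. Eya1 is a coactivator and phosphatase that works with homeodomain proteins upstream of these factors. Des encodes desmin, an intermediate filament protein of all muscle types that is also made by pericytes. Chrna1 encodes the alpha subunit of the muscle acetylcholine receptor, and Musk encodes the receptor tyrosine kinase that gathers this receptor at the neuromuscular junction after agrin binds its partner Lrp4. In adult fibers away from the junction, the receptor genes and Musk are kept low by nerve activity. They rise on denervation.

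The labelled tissue was checked first. All 9 fibroblast genes of the marker list averaged 10 CPM (counts per megacount of the library, with library totals adjusted by trimmed mean of M-values) or more over the 30 tumors, led by Fn1 (fibronectin) at 10230 CPM and by Col1a2, Col1a1 and Vim at 5642, 4988 and 4919 CPM. In contrast, none of the 18 mature skeletal muscle genes averaged 10 CPM. The highest of them in CPM, Acta1 (skeletal actin), averaged 2.12 CPM.

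The promoters of Musk, Chrna1 and Myog are shown because the first 2 genes were read in nearly every tumor and Myog, which acts through the same motif, was not. Each line gives the 250 bases before the RefSeq transcript start on GRCm38.p6, 5′ to 3′ in the direction of the gene, with every E-box (CANNTG, which reads the same on both strands) in capitals. The windows are chr4:58285712-58285961 on the plus strand for Musk, chr2:73580339-73580588 on the minus strand for Chrna1 and chr1:134289754-134290003 on the plus strand for Myog.
Musk: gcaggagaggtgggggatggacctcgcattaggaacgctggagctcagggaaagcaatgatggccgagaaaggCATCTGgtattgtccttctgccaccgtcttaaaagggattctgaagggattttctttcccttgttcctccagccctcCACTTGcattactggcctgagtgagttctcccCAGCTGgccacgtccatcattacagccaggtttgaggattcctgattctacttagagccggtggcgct
Chrna1: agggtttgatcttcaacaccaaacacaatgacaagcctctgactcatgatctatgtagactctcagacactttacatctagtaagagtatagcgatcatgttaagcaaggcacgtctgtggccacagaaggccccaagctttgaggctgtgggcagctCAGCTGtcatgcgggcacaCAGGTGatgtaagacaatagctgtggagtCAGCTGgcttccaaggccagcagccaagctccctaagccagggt
Myog: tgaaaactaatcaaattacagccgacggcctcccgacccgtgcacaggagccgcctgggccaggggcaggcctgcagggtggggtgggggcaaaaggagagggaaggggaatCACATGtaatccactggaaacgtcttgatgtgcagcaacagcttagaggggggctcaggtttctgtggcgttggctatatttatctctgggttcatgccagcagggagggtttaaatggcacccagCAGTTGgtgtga
Musk and Chrna1 each held 3 E-boxes and Myog held 2. At least 1 E-box stood in 66.2% of the 32851 promoter windows of this length, and at least 3 in 12.2%. The form CAGCTG, which overlaps the general motif, occurred once in the Musk window and at 2 places in the Chrna1 window. Of all windows, 13% held at least 1 CAGCTG and 1.26% held at least 2. These matches are letters in a window and not binding sites.

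The determination and differentiation factors were almost unread. Myod1 (chromosome 7, 46376474 to 46379099 on GRCm38) had 4 counts in all, 1 in each of 4 tumors. Myog had 2 counts in all, in 2 tumors, and Pax7 had 1 count in 1 MCA-970 tumor. Pooled over the 30 tumors, these counts allow levels of up to 0.00942 CPM for Myod1, 0.00665 CPM for Myog and 0.00513 CPM for Pax7 (upper bounds of exact Poisson intervals at 95%, which cover counting error only). None of the 3 genes had more than 1 count in any tumor, and Myf6, the fourth factor of the Myod1 family, had at most 3.

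Myf5, the earliest factor of the family in the embryo, was the exception at a low level. Its counts in the 4 MCA-972 tumors were 3, 9, 7 and 9 (0.0782, 0.246, 0.171 and 0.251 CPM), against 0 in every MCA-948 and MCA-970 tumor and at most 1 in MCA-943 and MCA-969. The groups did not overlap, on counts at or near the 3 per library taken below as the limit. For this gene and for the other members described below, the share of all genes that separate lines without overlap was not computed. Pooled counts were 12.7-fold higher in MCA-972 than in MCA-943 (28 against 2 counts, exact 95% interval 3.19 to 110 for counting error) and 27.5-fold higher than in MCA-969 (28 against 2, interval 6.93 to 238). Against MCA-948 and MCA-970, whose tumors had no count, Myf5 was at least 2.26-fold and 2.05-fold higher, taking 3 counts per library as the limit. Myf5 did not pass the filter on low counts. With that filter removed, edgeR called it higher in MCA-972 than in MCA-943, MCA-948, MCA-969 and MCA-970 (adjusted p = 0.00202, 2.48e-06, 3.13e-05 and 3.80e-05). The share of all genes called without the filter was not computed. With the filter, 25.6%, 26.8%, 20.6% and 17.6% of genes were called in the same comparisons.

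Pax3, which marks muscle progenitors and neural crest, was read in MCA-970 alone at more than 2 counts. The 6 MCA-970 tumors had between 40 and 181 counts (1.47 to 4.38 CPM, median 3.33), and the other 24 tumors had 8 counts together. Every MCA-970 tumor was above every other tumor. Pooled counts were 151-fold higher in MCA-970 than in MCA-943 (664 against 3 counts, interval 51.4 to 734), 328-fold higher than in MCA-948 (against 3, interval 112 to 1594) and 492-fold higher than in MCA-969 (against 2, interval 136 to 4068). Against MCA-972, with no count, the level was at least 40.4-fold higher. Pax3 passed the filter on low counts only through MCA-970, so it had to differ from that line. The other lineage factors were not read with it: MCA-970 had no Myf5 or Myod1 count and 1 count each of Pax7 and Myog.

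Pax3 also marks melanocytes and Schwann cell precursors, so the markers of these cells were read beside it. Of the 10 markers on that list, 5 had at most 3 counts in every MCA-970 tumor, among them Tyr and Sox10, and Mlana had at most 1 count in any tumor. Mitf, a transcription factor of melanocytes that fibroblasts also make, averaged 38.4 CPM in MCA-970 and 7.84 to 27.6 CPM elsewhere. The summed level of the list ran from 30.7 to 50.9 CPM in MCA-970, against up to 38.3 in MCA-969 and at most 17.1 in the remaining lines. On that list 2 genes had no count in MCA-970, Tyr and Dct. Its part in the Pax3 signal was not tested.

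**Figure D1:**
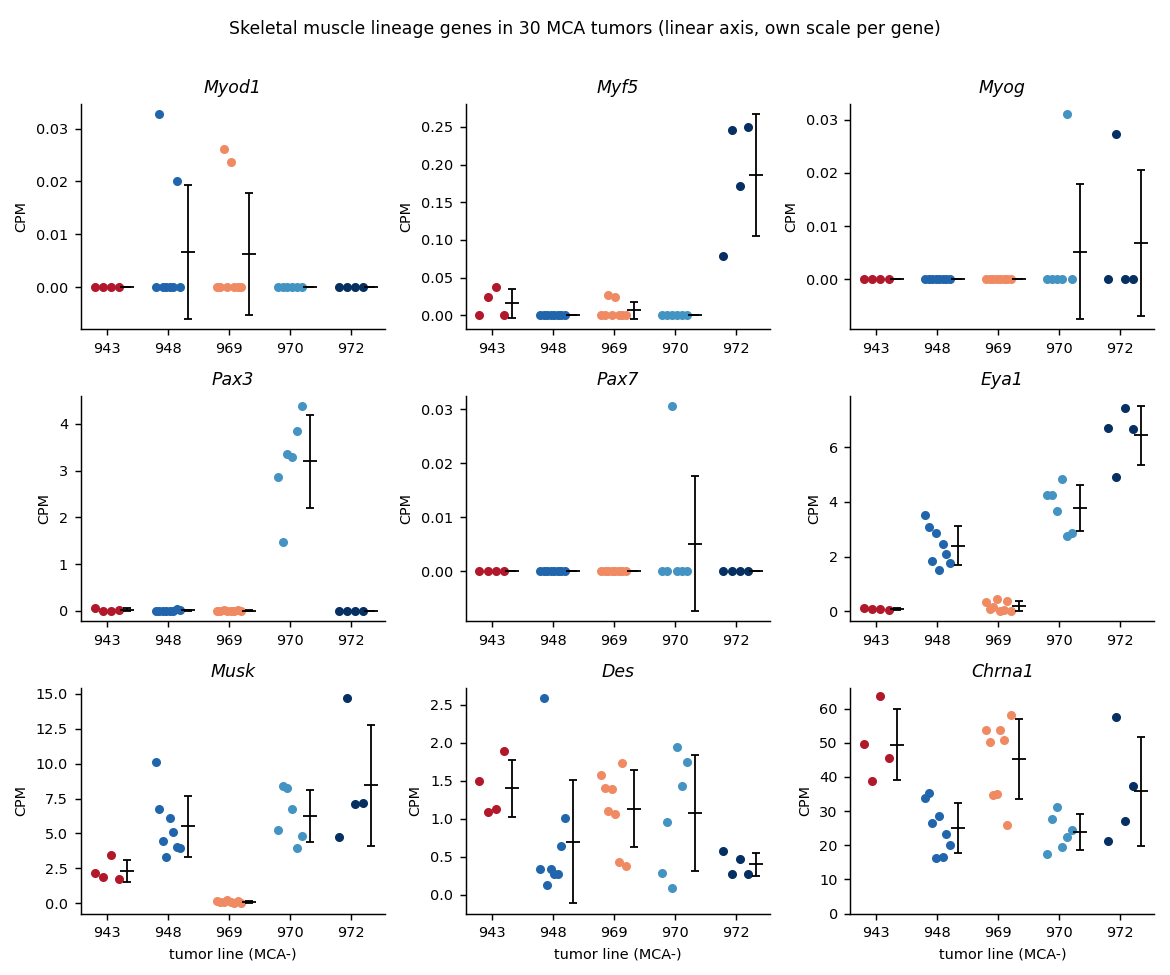
Level of each of the 9 genes in CPM (vertical axis, linear, own scale for each gene) in every tumor of the 5 lines (horizontal axis); points are tumors, black marks are the mean and SD of the line, red and orange are the non-sensitive lines and blues the sensitive ones. Myod1, Myog and Pax7 reach at most 1 count per tumor, Pax3 stands at 1.47 to 4.38 CPM in MCA-970 alone, and Chrna1 is above 16 CPM in all 30 tumors.

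Musk (chromosome 4, 58285960 to 58374303) was present at a few CPM in 4 lines and nearly absent from MCA-969. In MCA-943 the 4 tumors had 2.14, 1.88, 3.44 and 1.71 CPM. The 8 MCA-948 tumors ran from 3.33 to 10.1 CPM with a median of 4.82. In MCA-970 the 6 tumors ran from 3.94 to 8.39 CPM with a median of 6.01. The 4 MCA-972 tumors had 4.74, 14.7, 7.12 and 7.21 CPM. The 8 MCA-969 tumors held 0 to 8 counts each, or 0 to 0.223 CPM with a median of 0.0748, and none overlapped a tumor of another line. In order of mean level the lines ran MCA-972 (8.44 ± 4.32 CPM, SD, n = 4), MCA-970 (6.24 ± 1.85, n = 6), MCA-948 (5.50 ± 2.19, n = 8), MCA-943 (2.29 ± 0.785, n = 4) and MCA-969 (0.104 ± 0.0776, n = 8). Each line overlapped the next in this order except MCA-943 and MCA-969. The pair of MCA-969 tumors with the opposite sensitivity label had 0.155 and 0 CPM and so sat with the rest of their line.

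Between the non-sensitive lines, Musk was 4.41 ± 0.40 higher in MCA-943 than in MCA-969 on the log2 scale (SE, edgeR adjusted p = 1.51e-10), in a comparison that the choice of Musk did not use and in which 27.0% of the 16862 genes tested were called (adjusted p under 0.05 and an absolute log2 difference of at least 1). The lines share no run, and with the run as a term in the model the difference was 5.62. Among the sensitive lines Musk was not called. MCA-948 differed from MCA-970 by -0.18 ± 0.28 (adjusted p = 0.579, 29.4% of genes called), MCA-948 from MCA-972 by -0.62 ± 0.31 (adjusted p = 0.0869, 26.8% called) and MCA-970 from MCA-972 by -0.44 ± 0.33 (adjusted p = 0.290, 17.6% called).

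Across sensitivity classes there are 6 line pairs, and these chose Musk and Eya1, so the values are a description. For Musk the log2 differences, non-sensitive minus sensitive, ran from -1.27 (MCA-943 against MCA-948) to -6.30 (MCA-969 against MCA-972). The first of these lies just inside the limit of 1. By the same rule 38 genes, or 0.225% of those tested, were lower in all 6. Within run 3, MCA-943 was below MCA-948 by -1.02. Within runs 1 and 2, MCA-969 was below MCA-972, MCA-970 and MCA-948 by -6.21, -6.16 and -6.61.

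Eya1 (chromosome 1, 14168954 to 14310235) was read in the sensitive lines and close to the limit of detection in the others. It overlaps the predicted genes Gm22616 and Gm37444, and reads from shared positions may not be assigned to it with certainty. The 4 MCA-943 tumors held 3, 3, 2 and 1 counts (0.0689 ± 0.0322 CPM, n = 4), and the 8 MCA-969 tumors held 0 to 16 counts (0.179 ± 0.182 CPM, n = 8). The 8 MCA-948 tumors ran from 1.49 to 3.52 CPM with a median of 2.28. The 6 MCA-970 tumors ran from 2.76 to 4.85 CPM with a median of 3.95, and the 4 MCA-972 tumors had 6.73, 4.91, 7.43 and 6.68 CPM. No tumor of a non-sensitive line reached the lowest tumor of a sensitive one. The choice of the gene fixed the order of the line means. The differences ran from -3.72 (MCA-969 against MCA-948) to -6.53 (MCA-943 against MCA-972).

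In the comparisons not used to choose it, Eya1 was 1.43 ± 0.38 lower in MCA-948 than in MCA-972 (log2, adjusted p = 0.00179). With the run of library numbers in the model this difference was -1.22 with an adjusted p = 0.356 and was not called, and the pair shares no run. MCA-948 and MCA-970 differed by -0.66 ± 0.35 (adjusted p = 0.0939), and MCA-970 and MCA-972 by -0.77 ± 0.41 (adjusted p = 0.122), although the lowest MCA-972 tumor, at 4.91 CPM, was above the highest MCA-970 tumor at 4.85. MCA-943 and MCA-969 differed by -1.38 ± 0.71 (adjusted p = 0.0908), on counts of 0 to 16 per tumor. Musk and Eya1 parted in MCA-943, where Musk kept 2.29 CPM on average and Eya1 0.0689.

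Chrna1 (chromosome 2, 73563215 to 73580338) had the highest level of the 9 genes per kb in every line and was read in every tumor. The 4 MCA-943 tumors had 49.7, 38.9, 63.7 and 45.6 CPM. The 8 MCA-969 tumors ran from 25.9 to 58.1 CPM with a median of 50.4. The 8 MCA-948 tumors ran from 16.3 to 35.2 CPM with a median of 24.8, and the 6 MCA-970 tumors from 17.4 to 31.3 with a median of 23.5. The 4 MCA-972 tumors had 21.2, 57.5, 27.0 and 37.4 CPM. All 4 MCA-943 tumors were above all MCA-948 and MCA-970 tumors, and every other pair of lines overlapped.

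Chrna1 differed among the 5 lines (edgeR F test, adjusted p = 0.000116), as did 94.1% of the genes tested. By adjusted p alone, 4 of the 6 pairs across classes had more Chrna1 on the non-sensitive side, the direction opposite to Musk and Eya1. Of these, only MCA-943 against MCA-970 also passed the limit of 1 and was called. The shares of genes given with each pair are of calls by both limits. Shares by adjusted p alone were not computed for the pairs, so the count of 4 has no background beside it. MCA-943 was 1.06 ± 0.25 above MCA-970 (log2, adjusted p = 0.000712), where 27.3% of genes were called. MCA-943 was 0.98 ± 0.24 above MCA-948 (adjusted p = 0.000628), just outside the limit of 1, in a comparison with 29.0% of genes called. MCA-969 was 0.85 ± 0.20 above MCA-948 (adjusted p = 0.000528, 20.8% called) and 0.93 ± 0.22 above MCA-970 (adjusted p = 0.000635, 21.4% called), both under the limit of 1. Against MCA-972 the differences were 0.47 ± 0.28 for MCA-943 (adjusted p = 0.159, 25.6% called) and 0.34 ± 0.25 for MCA-969 (adjusted p = 0.249, 20.6% called). Within run 3 the gene was 1.15 higher in MCA-943 than in MCA-948, and within run 2 it was 0.28 higher in MCA-969 than in MCA-948 (adjusted p = 0.631 with 2 tumors a line). Without the MCA-943 tumor a-1G or the MCA-970 tumor W-1D, the difference of MCA-943 from MCA-970 was 0.87 and 0.98 and passed the adjusted p alone.

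Des (chromosome 1, 75360329 to 75368579) was low in all lines and varied within them, and as the strand setting of the counting is not known its reads at the end shared with the antisense gene Gm15179 cannot be told from those of that gene. The 4 MCA-943 tumors had 1.49, 1.09, 1.13 and 1.89 CPM, and the 4 MCA-972 tumors had 0.573, 0.273, 0.465 and 0.278 CPM. The 8 MCA-948 tumors ran from 0.125 to 2.59 CPM (median 0.338), the 8 MCA-969 tumors from 0.371 to 1.73 CPM (median 1.25) and the 6 MCA-970 tumors from 0.0917 to 1.94 CPM (median 1.19). The gene did not pass the F test among lines (adjusted p = 0.109). Of the 10 pairs of lines, 1 was called, MCA-943 above MCA-972 by 1.80 ± 0.73 (adjusted p = 0.0370). That call was lost without any of 5 tumors (MCA-943 W-2G and a-R, MCA-972 a-1, a-1G and a-R), with adjusted p of 0.0614 to 0.0871. With the run in the model, 2 other pairs were called, MCA-943 above MCA-948 by 1.64 (adjusted p = 0.0194) and MCA-969 above MCA-972 by 1.53 (adjusted p = 0.0492). Within a single run the same pairs differed by 1.61 (run 3, adjusted p = 0.00595) and 1.53 (run 1, adjusted p = 0.00362).

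Desmin counts in MCA-948 rested on the tumor a-R, which had 2.59 CPM where the other 7 tumors had at most 1.01. Without it, MCA-948 was below MCA-943 by 1.69 (adjusted p = 0.00589), below MCA-969 by 1.38 (adjusted p = 0.00994) and below MCA-970 by 1.31 (adjusted p = 0.0170), none of which was called with it. The same tumor had the highest summed level of the 5 endothelial markers (Pecam1, Cdh5, Kdr, Tek, Emcn) in its line, 313 CPM against 15.7 to 210 in the other 7. The next Des values in that line, 1.01 CPM in a-2D and 0.642 in a-1G, came with the next endothelial sums, 210 and 173 CPM. In MCA-970 the lowest Des values, 0.0917 CPM in W-R and 0.290 in W-1D, came with the lowest endothelial sums, 251 and 275 CPM against 421 to 454 in the remaining tumors. Cdh5 alone gave 211 to 252 CPM of the sum in every MCA-970 tumor. In MCA-969 the lowest, 0.371 and 0.432 CPM in W-2D and a-R, also came with the lowest sums, 65.3 and 55.0 CPM. In MCA-943 the tumor a-R had both the highest Des and the highest sum, 1.89 and 112 CPM. The next sum there, 75.3 CPM in a-1G, came with Des at 1.13 CPM, below the 1.49 of W-2G at a sum of 56.6. Between lines the order also differed. MCA-943 had the highest mean Des, 1.40 CPM, at a median sum of 65.9 CPM, and MCA-970 had 1.08 CPM at a median sum of 422. MCA-972 went the other way, as a-R had the highest sum of its line, 102 CPM against 40.0 to 65.2, with Des at 0.278 CPM, near the lowest of the line. The 12 smooth muscle and pericyte markers, of cells that also make desmin, summed to 388 CPM in a-R and to 257 to 554 in the other MCA-948 tumors. In MCA-948 Pdgfrb and Cspg4 led that sum, averaging 228 and 142 CPM. Rgs5, Abcc9 and Kcnj8 of the same list had their highest MCA-948 values in a-R, 52.2, 29.6 and 7.66 CPM. Their medians in the line were 7.81, 4.62 and 0.780 CPM. Tagln, Synm, Myh11 and Lmod1 also peaked in a-R, at 9.95, 3.01, 1.64 and 0.393 CPM. Acta2 peaked in another tumor, and Cspg4 was at its lowest in a-R, 79.9 CPM. The part of vessel cells in the Des counts was not tested.

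**Figure D2:**
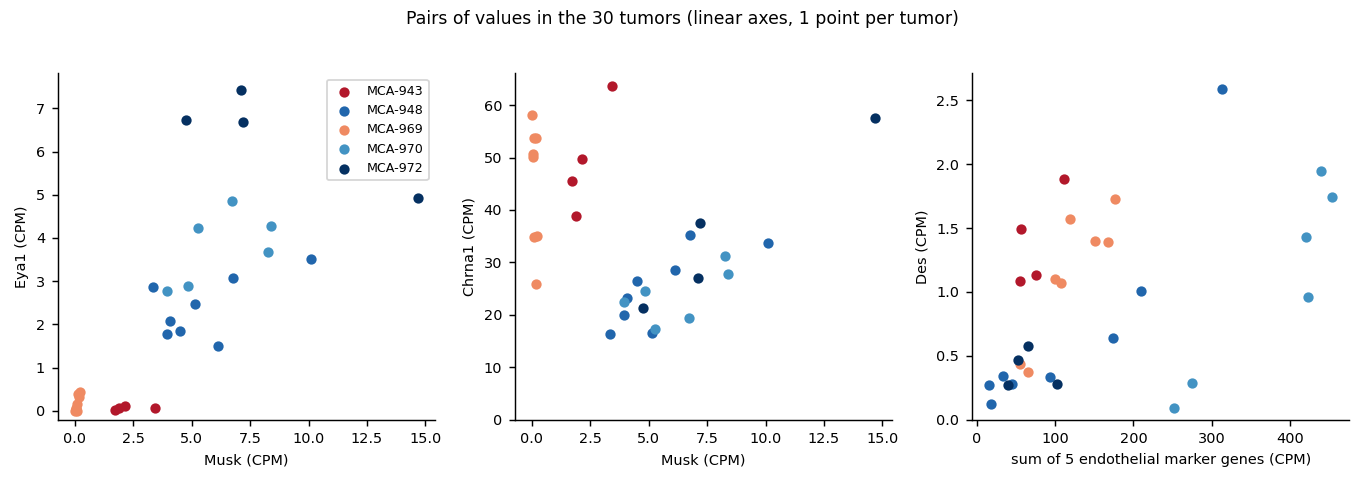
Each point is 1 tumor, coloured by line, on linear CPM axes: Musk (horizontal) with Eya1 on the left and with Chrna1 in the middle, and the summed level of 5 endothelial markers (horizontal) with Des on the right. MCA-943 (red) keeps Musk at 1.71 to 3.44 CPM with Eya1 at no more than 0.102, and MCA-969 (orange) has Chrna1 at 25.9 to 58.1 CPM with Musk at no more than 0.223.

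Of the comparisons open to a test, 1 of 10 was called for Des, 1 of 10 for Chrna1, 1 of 4 for Musk and 1 of 4 for Eya1, beside the 17.6% to 29.4% of all genes called between the same lines. The 4 calls of Pax3, all against MCA-970, followed from its passing the filter through that line and are not counted with these. No member was called higher in MCA-943 and MCA-969 against every sensitive line, against 0.652% of the genes tested.

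Within lines, the members were set against each other over the 3 lines with at least 6 tumors, in 17 relations of log2 CPM with exact two-sided permutation tests. In MCA-969 Musk went with Eya1 (Pearson r = 0.886, exact permutation p = 0.00313, adjusted p = 0.0329; Spearman rho = 0.874, exact permutation p = 0.00794, adjusted p = 0.131; n = 8) on 0 to 8 and 0 to 16 counts per tumor. Without the 2 tumors farthest from the Musk median r was 0.835, and among the 6 tumors of run 1 it was 0.867. Musk also went with Des there (r = 0.830, exact permutation p = 0.00387, adjusted p = 0.0329; rho = 0.714, exact permutation p = 0.0576, adjusted p = 0.196), with 0.715 without those 2 tumors and 0.635 in run 1. The 3 MCA-969 tumors with the most Musk counts, 6 to 8, had endothelial sums of 120, 168 and 176 CPM, W-R with 2 counts had 150.5 and the tumor with none had 65.3. Such counts leave the order of tumors open to counting error, and the part of other cells was not tested.

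The remaining 15 relations did not pass the adjustment. In MCA-948 Musk and Chrna1 had r = 0.773 (exact permutation p = 0.0233, adjusted p = 0.132, n = 8), with rho = 0.833 (exact permutation p = 0.0154, adjusted p = 0.131), r = 0.615 without the 2 farthest tumors and r = 0.541 in the 6 tumors of run 3. In MCA-969 the same pair had r = -0.555 (adjusted p = 0.325 by the exact permutation test). Eya1 and Chrna1 had r = -0.712 in MCA-969 (adjusted p = 0.184 by the exact permutation test, rho = -0.755), with -0.553 in its run 1, and r = 0.157 in MCA-948, with -0.867 in its run 3 (exact permutation p = 0.0319, not adjusted). Musk and Eya1 had r = 0.423 in MCA-948 (adjusted p = 0.459 by the exact permutation test) and -0.626 within its run 3, and r = 0.675 in MCA-970 (adjusted p = 0.325 by the exact permutation test, n = 6). In the smallest group the single MCA-972 tumor a-1 had the highest Musk and Chrna1 of its line, 14.7 and 57.5 CPM, and the lowest Eya1 and Des.

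The genes whose levels followed Musk most closely over the 30 tumors were Kdm1a (a histone demethylase), Pmm1, Uso1, Bhlhe22 and Myo1c, with Pearson r of 0.953, 0.939, 0.938, 0.934 and 0.931 on log2 CPM. For Eya1 they were 1700001L05Rik, Afap1, Srgap1, Supt20 and Art3, with r of 0.933, 0.926, 0.925, 0.923 and 0.915. Eya1 ranked 142 in likeness to Musk (r = 0.805). Both genes were chosen for the same order of the lines, which fixes much of this likeness and of the likeness of the genes near them, so nothing is read from it. The tumors share lines, so these are descriptions over 5 origins.

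Some partners and relatives of Eya1 were read in all lines and others were not. Six2 was near the limit of detection in every line, with at most 6 counts in any tumor and none in MCA-972. Dach2 averaged 0.897 CPM in MCA-972, the line with the most Eya1, and 0.00612 to 0.254 CPM in the others, with 1 count over all MCA-943 tumors. Six2 and Dach2 were named after their values were seen. Eya3 and Eya4, its paralogs, averaged 59.3 and 11.9 CPM over the tumors, and the homeodomain partner Six4 averaged 28.1 CPM. No gene described from the list of Eya1 partners and relatives was called one way in all 6 pairs across the sensitivity classes. Eya4 averaged 1.57 CPM in MCA-943, its lowest line, and 16.3 CPM in MCA-969.

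Of the 20 other myogenic regulators, Myf6, Pitx3 and Lbx1 had at most 3 counts in every tumor, and 12 averaged 10 CPM or more. The latter were broadly acting factors: Met, the receptor for hepatocyte growth factor, Tcf12, the dimer partner of the Myod1 family, Mef2d, and Id3, an inhibitor of E-box binding, averaged 1252, 413, 153 and 121 CPM. Met reached 4149 ± 719 CPM in MCA-948. No gene of this list was called one way in all 6 pairs across the classes.

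The products of differentiated muscle were scarce in all lines. Of the 35 genes on the mature and the embryonic lists, 24 averaged under 1 CPM and 13 had at most 10 counts in every tumor. Genes in that group, named after their values were seen, include Mymk and Mymx, the fusion proteins of myoblasts, and Ckm, the muscle creatine kinase, with at most 1, 1 and 10 counts. The summed level of the 18 mature genes ran from 5.60 CPM in an MCA-970 tumor to 18.9 CPM in the MCA-969 tumor W-2D. After Acta1 the mature genes with the highest levels were Myh1, Mylpf and Tnnt3 at 1.74, 1.11 and 1.11 CPM. None was called one way in all 6 pairs, and their median log2 difference, over the 8 that passed the filter, was between 0.41 and 1.21 with the non-sensitive line higher, beside medians of -0.01 to 0.04 over all genes. Single members went the other way: Myh1 was lower in MCA-943 than in MCA-972 (-1.25 ± 0.27, adjusted p = 0.000244) and lower in MCA-969 than in MCA-970 (-1.38 ± 0.21, adjusted p = 1.58e-06) and MCA-972 (-2.10 ± 0.22, adjusted p = 5.75e-09). Mb (myoglobin), named after its values were seen, was called lower than in MCA-970 in both non-sensitive lines (-1.50 and -1.04).

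A few sarcomeric genes on the embryonic list stood out in 1 line each. Tnnt2, the cardiac troponin T also made by early myoblasts, averaged 48.5 ± 10.6 CPM in MCA-943, 3.27 in MCA-948 and 0.484 to 0.721 in the other 3 lines. It was 6.06 ± 0.29 higher in MCA-943 than in MCA-969 (log2, adjusted p = 2.37e-16). Ttn, the giant spring protein titin, averaged 26.7 ± 17.7 CPM in MCA-948 and 0.652 to 3.01 elsewhere, and was 5.33 ± 0.53 higher in MCA-948 than in MCA-972 (adjusted p = 8.85e-10). The gene is long, at 116825 counted bases. Divided by length, Ttn in MCA-948 stood at 0.228 CPM per kb, below Acta1 at 0.937 in the same line. Itga7, a laminin receptor of muscle and vessel wall, averaged at most 38.8 CPM, its level in MCA-972, and Jph1 3.51 CPM over all tumors. Tnnt2 and Ttn were highest in lines other than MCA-972, where Musk, Eya1 and Myf5 were highest. Itga7 and Myh1 were highest in MCA-972, at 38.8 and 4.19 CPM. So were Myl4, an atrial and embryonic myosin light chain, at 2.97 ± 0.951 CPM, and Msc (musculin), a repressor that binds E-boxes, at 2.86 ± 0.943 CPM against at most 0.118 in the other lines. Myl4 and Msc were named after their values were seen.

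**Figure D3:**
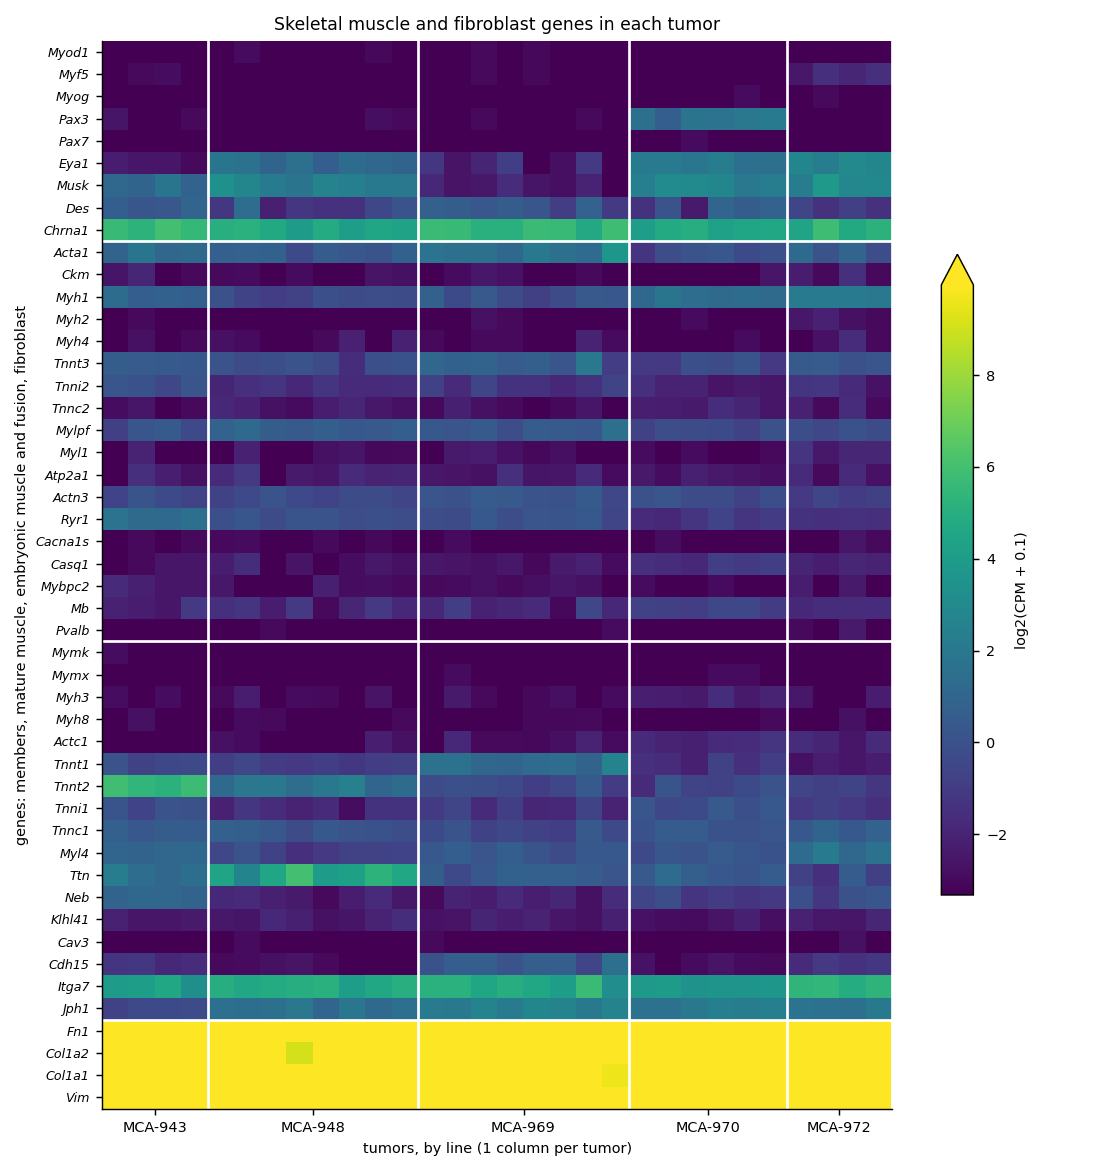
Level as log2(CPM + 0.1), colour, of the 9 members, 18 mature muscle genes, 17 embryonic muscle and fusion genes and 4 fibroblast genes (rows) in each of the 30 tumors (columns, grouped by line); values above the end of the colour scale share its last colour. The muscle rows are dark in most tumors, apart from Chrna1 and Itga7 in all lines, Tnnt2 in MCA-943 and Ttn in MCA-948, and the fibroblast rows are bright throughout.

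The muscle acetylcholine receptor is a pentamer of alpha, beta and delta subunits with gamma in the embryo or epsilon in the adult, so the other subunits were read beside Chrna1. Divided by counted length, Chrna1 stood at 5.43 to 11.3 CPM per kb by line and Chrnb1, the beta subunit, at 5.61 to 14.2 CPM per kb. The delta, gamma and epsilon subunits did not accompany them. Chrnd had no count in MCA-943, MCA-970 or MCA-972 and at most 9 counts in an MCA-969 tumor, Chrng had at most 1 count in any tumor, and Chrne had at most 10. These 3 subunits stood at no more than 0.0311 CPM per kb in any line. The 5 subunit genes were named with their values known.

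Components of MuSK signalling split in the same way. Agrn, the gene of the ligand agrin, averaged 80.9 to 200.2 CPM by line, Lrp4, the coreceptor, 9.23 to 31.1 CPM, and Rapsn, which anchors the receptor, 0.839 to 4.13 CPM. Lrp4, Rapsn and the low-count genes that follow were named with their values known. Dok7, the adaptor that MuSK needs in muscle, had at most 8 counts in any tumor and none in MCA-943. Colq and Ache, which make the synaptic acetylcholinesterase, had at most 8 and 10 counts. Of this list of 18 genes, 6 had at most 10 counts in every tumor and 9 averaged 10 CPM or more, led by Utrn, Abl1, Agrn and Dnaja3 (172, 148, 112 and 49.0 CPM), all of which are made in many tissues. Musk itself stood at 0.607 to 2.23 CPM per kb in the 4 lines that expressed it and at 0.0275 in MCA-969.

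A single gene of the list was called one way in all 6 pairs. Erbb3, a receptor for neuregulin, averaged 1.45 ± 0.394 CPM in MCA-943 and 0.608 ± 0.199 in MCA-969, against 0.117 to 0.231 in the sensitive lines, and was higher by 1.39 ± 0.27 (MCA-969 against MCA-970) to 3.58 ± 0.37 (MCA-943 against MCA-972) on the log2 scale (adjusted p of 6.62e-05 and 2.26e-09). Its direction was opposite to that of Musk. Among the genes tested, 0.652% passed in all 6 pairs with more on the non-sensitive side. The paper already lists Erbb3 as upregulated in non-sensitive tumors, from the same tumors and by comparing each non-sensitive with each sensitive line. The lists here were chosen with earlier results known, so the Erbb3 values are a description and not a separate finding. The Erbb3 call in all 6 was lost with the run in the model.

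**Figure D4:**
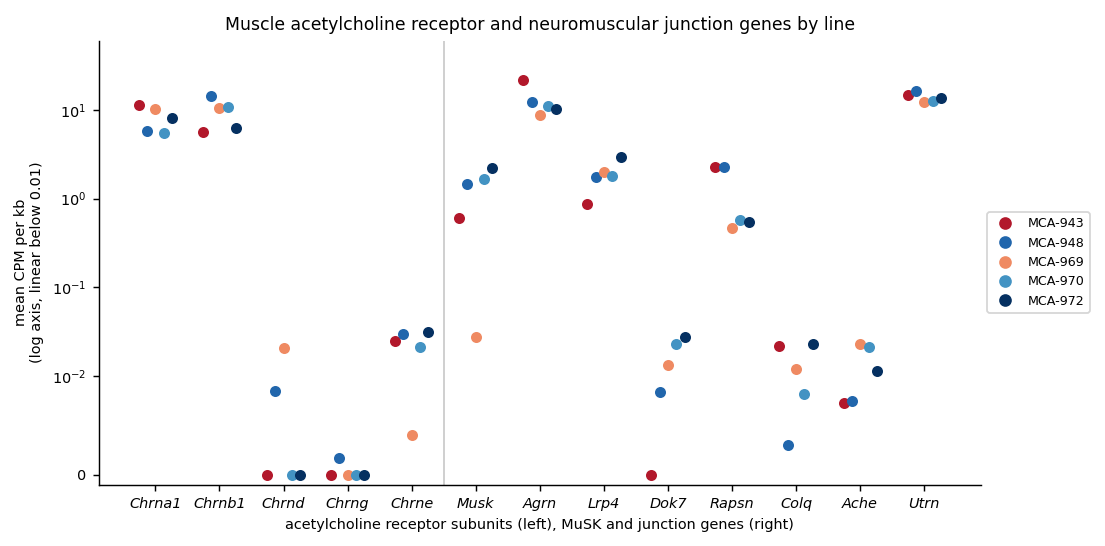
Mean CPM per kb of counted length (vertical axis, logarithmic above 0.01 and linear below) of the 5 muscle acetylcholine receptor subunit genes and of Musk and other junction genes (horizontal axis), 1 point per line. Chrna1 and Chrnb1 lie between 5.43 and 14.2, the other 3 subunits at or below 0.0311, and Musk in MCA-969 at 0.0275.

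Markers of other cells were low beside the fibroblast genes but differed by line. The 5 endothelial markers summed to 251 to 454 CPM in MCA-970 and to 15.7 to 313 in the rest, the 8 leukocyte markers to 7.30 to 113 CPM over all tumors, the 4 adipocyte markers to 1.12 to 32.0 and the 4 keratinocyte markers to 0.846 to 18.6. The smooth muscle and pericyte list, led by Pdgfrb, Acta2, Cspg4 and Tagln (314, 243, 101 and 78.6 CPM), had its highest medians in MCA-943 and MCA-972, with sums of 1331 to 1552 and 1097 to 1737 CPM. Their part in the levels of the 9 genes was not tested.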

How the data were processed

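The 30 tumors were sequenced by the authors, who aligned reads to GRCm38 with STAR 2.5.3a and deposited whole-number counts per Ensembl gene made with featureCounts (1.5.2 per the submitters' processing notes). Column names state that duplicates were removed by molecular identifier, and whether strand was used is not given in the sources used here. Symbols came from GENCODE M21 (48058 of 48440 identifiers).

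Counts were analysed with edgeR 4.0.16 in R 4.3.3 (TMM scaling, filterByExpr, robust quasi-likelihood fit with line as the only term, all 30 tumors, common biological coefficient of variation 0.221). The filter kept 16862 genes, among them 5 of the 9 members (Pax3, Eya1, Musk, Des and Chrna1). P-values were adjusted by Benjamini-Hochberg over all genes tested. A gene was called at adjusted p under 0.05 and an absolute log2 difference of at least 1, written as first minus second line. SE values are derived from the quasi-likelihood F statistic. Levels are CPM on TMM-scaled totals, and 3 counts correspond to 0.0792 to 0.0908 CPM by line. Correlations used log2 CPM with a prior count of 2. Exact Poisson and binomial intervals at 95% used scipy 1.17.1.

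The members and lists were chosen with earlier results of these data known. Genes named are the 9 members, the 5 most like Musk and the 5 most like Eya1, and from each list those called one way in all 6 comparisons and the 4 with the highest mean. Others were chosen after their values were seen, namely the receptor subunits, Lrp4, Rapsn, Mb, Myl4, Msc, Tyr, Dct, Sox10, Mlana, Six2, Dach2 and low-count genes. From the smooth muscle and pericyte list, Rgs5, Abcc9, Kcnj8, Synm, Myh11 and Lmod1 were chosen in that way too. Alternatives were DESeq2 1.42.0, its size factors, other filters, no limit on the fold, the run or the animal code in the model, and leaving out tumors. Replicate tumors were checked for duplicate libraries, and none was found (lowest chi-square per gene 14.5). The edgeR and DESeq2 scripts were tested on simulated data. A result on 1 gene of the lists is not reported here.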

Additional observations from a re-analysis of the deposited data

Results flagged for a closer look

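In MCA-948 the Des level of the tumor a-R was 2.587 CPM, farther from the rest of its group than Dixon's limit allows: the nearest of the other 7 tumors had 1.01 CPM, and the gap took 0.64 of the range, above the 95% critical value for 8 tumors. Of the 21 groups of member values with 4 to 10 tumors that were examined, 1 passed its limit, and chance alone passes about 1 in 20. The tumor also had the highest endothelial sum of its line, 313 CPM, whose part in the value was not tested.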

How the results depend on the processing

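The 8 member calls (Pax3 4, fixed by its filter, and Musk, Eya1, Des and Chrna1 1 each) became 3 when a mean of at least 1 CPM was required, a filter that removed Pax3 and Des, 10 with DESeq2 or with the run in the model, 11 without a limit on the fold, and 7 without a filter. Leaving out 1 tumor at a time gave 7 to 14 calls, the highest without MCA-948 a-R. The animal code as a replicate block gave 7 calls, losing Eya1 MCA-948 against MCA-972 (adjusted p = 0.0965) and Des MCA-943 against MCA-972 (adjusted p = 0.147). Of 29 same-code pairs of tumors, 8 correlated above 0.1 (r from -0.43 to 0.41). Pairs of unlike code were not computed, so whether the codes pair the samples is not known. The single list gene called one way in all 6 pairs, Erbb3, was lost with a mean of at least 1 CPM and with the run in the model (0 genes each), and 3 genes passed without a limit on the fold. Of Pax3, Des and Chrna1, 2 differed among the lines, 1 with a mean of at least 1 CPM and 3 with the run in the model. The 2 within-line correlations became 0 with Spearman's rho, and 0 to 3 when 1 tumor was left out. They became 0 without any of 6 MCA-969 tumors (W-2G, a-1D, a-1G, a-R, W-1D, W-2D). The causes were not tested, other than by the filters' construction. Of 1439 recomputed values over the 38 comparisons, 11 lost a call, 32 gained one, 0 reversed a called difference, and 27 changed the sign of a difference that was never called. With Spearman's rho 1 of the 5 genes most like Musk and 0 of the 5 most like Eya1 stayed in the list. Counts of 0 to 9 per tumor limit Myod1, Myf5, Myog and Pax7 in all lines, Pax3 outside MCA-970 and Musk in MCA-969.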
